A study of Homo sapiens with 9 samples.

Results

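Expression of 10 Wnt target and intestinal stem cell genes (LGR5, ASCL2, SOX9, CD44, AXIN2, NKD1, RNF43, ZNRF3, TCF7 and MYC) was examined by RNA-Seq in HT-29 cells. The genes were taken from general knowledge of the pathway and of the intestinal crypt, and all 10 are among the 23284 gene symbols listed for every library. HT-29, a long-established line from a human colon adenocarcinoma, carries truncating mutations of APC. Cultures received vehicle (DMSO, 0 µM, the control), 5 µM or 10 µM of 5-Aza-deoxycytidine (5-Aza) for 5 days, with 3 separate cultures per concentration. All 9 cultures share the line and its APC mutations, so the data hold no APC-intact cells.

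In the canonical Wnt pathway, a Wnt ligand binds a Frizzled receptor and an LRP coreceptor, which stops a complex of APC, AXIN and kinases from destroying β-catenin. β-catenin then enters the nucleus, binds TCF/LEF factors and switches on target genes, among them inhibitors such as AXIN2 that feed back on the pathway. At the base of the intestinal crypt this signal maintains stem cells, which are marked by LGR5 and ASCL2, and loss of APC function in colon cancer leaves the pathway active without ligand. 5-Aza is incorporated into DNA and traps DNA methyltransferases, so that CpG methylation is lost as cells divide.

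Promoters are shown for the members found in the RefSeq table (GRCh38.p14), since CpG dinucleotides are the sites that 5-Aza acts on. The table held 3 of the 10 members, CD44, RNF43 and TCF7, of which CD44 and RNF43 were lower at 5 µM and TCF7 was not called. Each sequence is the 250 bases before the annotated start, 5′ to 3′ on the gene's own strand, with every CpG in capitals.
CD44: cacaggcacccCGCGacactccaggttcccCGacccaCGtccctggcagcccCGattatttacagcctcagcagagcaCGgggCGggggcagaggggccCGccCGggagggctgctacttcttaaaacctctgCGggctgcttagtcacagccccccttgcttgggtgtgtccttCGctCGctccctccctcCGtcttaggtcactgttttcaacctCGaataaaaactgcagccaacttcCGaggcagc
RNF43: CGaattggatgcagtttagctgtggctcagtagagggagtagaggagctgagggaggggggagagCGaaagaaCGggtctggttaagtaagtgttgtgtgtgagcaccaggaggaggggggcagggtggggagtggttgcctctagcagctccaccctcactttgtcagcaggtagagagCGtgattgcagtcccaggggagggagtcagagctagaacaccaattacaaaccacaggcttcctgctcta
TCF7: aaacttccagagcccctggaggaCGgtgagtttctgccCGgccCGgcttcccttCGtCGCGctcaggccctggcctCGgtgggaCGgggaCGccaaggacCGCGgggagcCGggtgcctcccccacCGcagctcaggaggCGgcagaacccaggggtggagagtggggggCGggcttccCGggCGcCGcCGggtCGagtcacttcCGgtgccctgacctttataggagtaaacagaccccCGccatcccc
The CD44 window (chr11:35138921-35139170, plus strand) held 15 CpG dinucleotides, and 57.1% of the 35116 promoter windows of the same length held fewer. For RNF43 (chr17:58417535-58417784, minus strand) the count was 4, with 29.3% of windows holding fewer. TCF7 (chr5:134115363-134115612, plus strand) had 22, with 72.0% holding fewer, and the median over all windows was 11. RNF43 and TCF7 each have a further annotated start, whose windows held 0 and 1 CpG. The letters CTTTGAT, a TCF/LEF core motif, or their reverse complement ATCAAAG stood in 0 of the member windows and in 2.26% of all windows. Methylation of these windows was not measured here.

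FPKM values are fragment counts divided by transcript length and library size, but the deposited values sum to between 3.692e+09 and 5.908e+09 per library, so they are used only as relative levels. Between 16373 and 16958 symbols were above 0 in the control libraries, against 18761 to 18957 at 5 µM and 17114 to 17592 at 10 µM. The FPKM library term, inferred from the value of 1 fragment, was 1 to 2.573 times that of control replicate 1. It was 2.286 or more in the 5 µM libraries. What this term counts is not given, so it need not be the total of fragments in a library. Differences are given on the log2(FPKM + 1) scale with the standard error (SE). Calls required more than a 2-fold difference, which is 1 on the log2 scale, and a limma p no higher than 0.05 after Benjamini-Hochberg adjustment. In bulk RNA, fewer cells of a type and less RNA per cell cannot be told apart.

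At 5 µM, 4 of the 10 members were called. NKD1 was 5.71-fold higher, whereas MYC, CD44 and RNF43 were 2.77-fold, 2.37-fold and 2.03-fold lower than in the control. At 10 µM the only member called against the control was LGR5, at 4.34-fold lower. AXIN2, a widely used readout of Wnt signalling, differed by no more than 0.09 on the log2 scale at either concentration. Against this, 14.1% of all tested genes were called up and 2.17% called down at 5 µM. At 10 µM these shares were 4.07% up and 3.4% down. Of the genes tested against the control, 20051 at 5 µM and 18928 at 10 µM, 15418 and 15261 were above 0 in every library of the comparison. The shares thus include genes listed at 0 in some libraries, unlike the members. The median log2 difference of the members was -0.44 at 5 µM and -0.57 at 10 µM, beside 0.14 and -0.15 over all tested genes. Over tested genes above 0 in every library of the comparison, as all members were, the medians were -0.04 and -0.23.

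**Figure D1:**
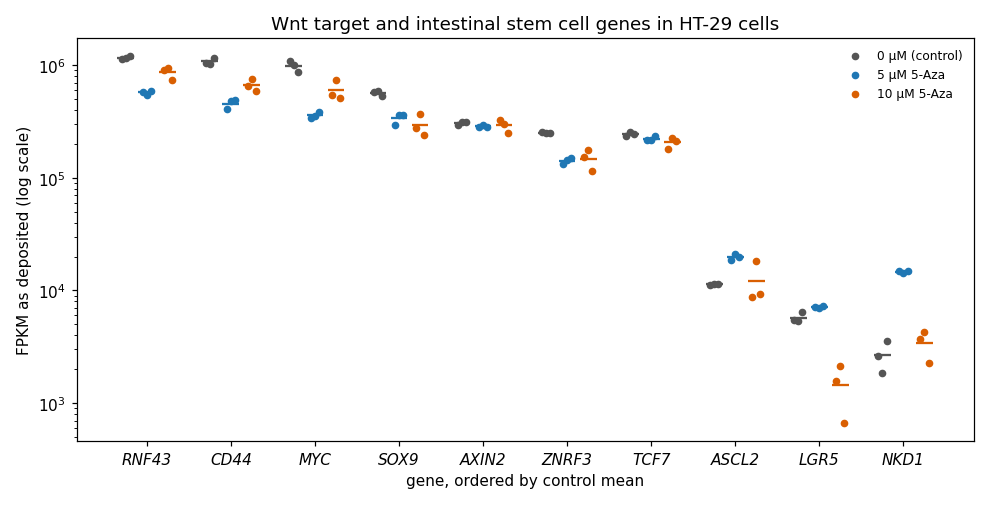
FPKM as deposited (log axis) of the 10 members in each of the 9 libraries, with control, 5 µM and 10 µM 5-Aza as separate colours and each point a culture. RNF43 stands highest in every group by its mean, and NKD1 goes from the lowest mean in the control, 2656, to 14645 at 5 µM.

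Taking the feedback inhibitors first, AXIN2 (GRCh37, 17:63524681-63557766, minus strand) encodes the scaffold of the destruction complex. Its FPKM was 293055, 310918 and 310064 in the control, 282924, 291512 and 282451 at 5 µM, with 326251, 302221 and 247800 at 10 µM. The 5 µM values lay just below the control values without overlap, while the 10 µM values spread to both sides of them. The difference from the control was -0.09 at 5 µM (SE 0.06, 95% interval -0.23 to 0.04, limma adjusted p = 0.234) and -0.07 at 10 µM (SE 0.14, -0.39 to 0.25, adjusted p = 0.728). Neither passed the test. The 10 µM and 5 µM groups differed by 0.02 (interval -0.30 to 0.35, limma adjusted p = 0.936). The sign of both AXIN2 differences from the control turns when libraries are scaled to equal totals, to 0.19 and 0.31, and that at 10 µM also turns with median-of-ratios scaling, to 0.17, and without 10 µM replicate 3, to 0.04.

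NKD1 (16:50582307-50683160, plus strand) encodes a cytoplasmic inhibitor that binds Dishevelled. Its FPKM was 2600, 1841 and 3527 in the control, 14758, 14197 and 14979 at 5 µM, with 3738, 4285 and 2265 at 10 µM. The 5 µM libraries stood well above all others and close to each other, and the control and 10 µM values overlapped. NKD1 rose at 5 µM by 2.51 (SE 0.29, interval 1.80 to 3.22, limma adjusted p = 0.00126) and was called under every alternative run for that comparison. At 10 µM the difference from the control was 0.37 (SE 0.48, interval -0.76 to 1.5, limma adjusted p = 0.587), which did not pass. Between the treated groups NKD1 fell by 2.14 from 5 µM to 10 µM (SE 0.32, adjusted p = 0.012 by limma). That last call was lost without 5 µM replicate 1 (adjusted p = 0.0624 by limma), replicate 2 (0.0595) or replicate 3 (0.0765), with the difference between -2.17 and -2.13.

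NKD1 and AXIN2, both negative-feedback targets, therefore stood at very different ratios across the groups. The AXIN2 level was 87.9 to 169 times the NKD1 level in the control libraries, 18.9 to 20.5 times at 5 µM and 70.5 to 109 times at 10 µM. These FPKM ratios are per length, and the 5 µM range overlaps neither of the others.

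RNF43 (17:56431037-56494956, minus strand) and ZNRF3 (22:29279560-29453476, plus strand) encode related membrane E3 ubiquitin ligases that remove Frizzled receptors from the cell surface. RNF43 was at 1123290, 1165250 and 1199430 FPKM in the control, 582709, 547062 and 591574 at 5 µM, with 911109, 939434 and 741709 at 10 µM. The 3 groups did not overlap, and 10 µM lay between the control and 5 µM. RNF43 fell by 1.02 at 5 µM (SE 0.06, interval -1.17 to -0.86, limma adjusted p = 0.000238), close to the 2-fold threshold. It no longer exceeded 2-fold without control replicate 3 (-1) or 5 µM replicate 2 (-0.99), nor with median-of-ratios scaling (-0.98) or equal library totals (-0.73), with the adjusted p still below the threshold in each. The difference at 10 µM was -0.44 (SE 0.15, limma adjusted p = 0.0907), and that between 10 µM and 5 µM was 0.58 (SE 0.15, adjusted p = 0.0661).

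ZNRF3 FPKM was 254818, 250119 and 250946 in the control, 132612, 142803 and 150045 at 5 µM, with 152942, 176227 and 115337 at 10 µM. All 6 treated libraries lay below the control libraries, and the treated groups overlapped each other. The difference was -0.83 at 5 µM (SE 0.07, limma adjusted p = 0.000435) and -0.79 at 10 µM (SE 0.17, adjusted p = 0.0263), so that the adjusted p passed at both concentrations while the size stayed within 2-fold. The ratio of RNF43 to ZNRF3 levels per library was 4.41 to 4.78 in the control, 3.83 to 4.39 at 5 µM and 5.33 to 6.43 at 10 µM.

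**Figure D2:**
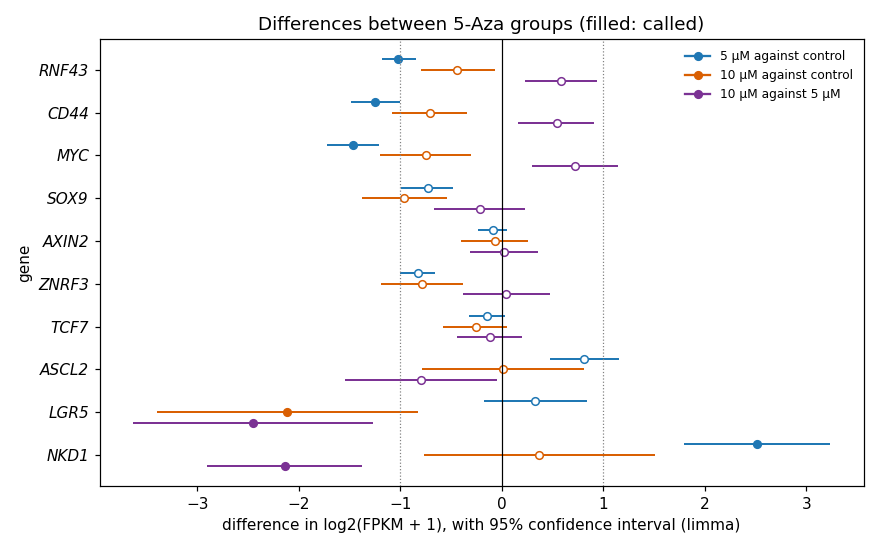
Difference in log2(FPKM + 1) of each member for 5 µM against control, 10 µM against control and 10 µM against 5 µM, with limma's 95% confidence interval as a line, filled points for called members and dotted lines at 2-fold. The largest difference in size is that of NKD1 at 5 µM, 2.51, and all 3 intervals of AXIN2 and of TCF7 include 0.

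Among the stem cell genes, LGR5 (12:71833578-71980090, plus strand) encodes the R-spondin receptor that marks crypt base stem cells. Its FPKM was 5433, 5303 and 6428 in the control, 7133, 7006 and 7334 at 5 µM, with 1575, 2136 and 672 at 10 µM. The 10 µM libraries were the lowest, the 5 µM libraries the highest, and no groups overlapped. These levels rest on few fragments. The LGR5 values are whole multiples of a common step in the 9 libraries, and dividing by that step gives 19, 28 and 48 fragments in the control, 60, 56 and 66 at 5 µM, with 7, 15 and 4 at 10 µM. Poisson 95% intervals for the 10 µM libraries run from 2.81 to 14.4, 8.4 to 24.7 and 1.09 to 10.2 fragments. If a fragment was shared between alignments, the step could be less than 1 fragment and the counts would be upper estimates.

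LGR5 fell by 2.12 at 10 µM against the control (SE 0.54, interval -3.39 to -0.84, limma adjusted p = 0.0426). Against 5 µM it fell by 2.45 (SE 0.50, interval -3.62 to -1.28, limma adjusted p = 0.0336), a 5.45-fold difference. At 5 µM the difference from the control was 0.33 (SE 0.21, interval -0.17 to 0.83, limma adjusted p = 0.249), and LGR5 did not pass. The call at 10 µM against the control held without 10 µM replicate 2 (limma adjusted p = 0.0193) but was lost without control replicate 1 (0.106), 2 (0.123) or 3 (0.103) and without 10 µM replicate 1 (0.0866) or 3 (0.0742). The call against 5 µM was lost without 5 µM replicate 1 (limma adjusted p = 0.126), 2 (0.132) or 3 (0.159) and without 10 µM replicate 1 (0.0532). With equal library totals the 10 µM difference from the control was -1.74 (limma adjusted p = 0.0677), and with no filter on low values its adjusted p was 0.0532. The difference kept its sign in each of these fits.

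ASCL2 (11:2289728-2291818, minus strand), a transcription factor of crypt stem cells, was at 11186, 11421 and 11350 FPKM in the control. At 5 µM it was at 18601, 21206 and 19742, and at 10 µM at 8801, 18101 and 9313. The control libraries were close together and below the 5 µM libraries, whereas at 10 µM replicate 2 stood near the 5 µM level and the other replicates below the control. That library had the highest value of the 10 µM group for every member except AXIN2. Its FPKM sum was also the largest of that group, 5.078e+09 against 3.692e+09 and 4.197e+09. In fragments recovered in the same way, ASCL2 had 24, 37 and 52 in the control, 96, 104 and 109 at 5 µM, with 24, 78 and 34 at 10 µM. The difference at 5 µM was 0.81 (SE 0.14, interval 0.48 to 1.14, limma adjusted p = 0.00496), which passed the adjusted p but not the fold. It exceeded 2-fold with equal library totals (1.1, limma adjusted p = 0.00167) and missed the adjusted p with all 9 libraries in a single fit (0.0617). At 10 µM it was 0.01 (SE 0.34, interval -0.78 to 0.80, limma adjusted p = 0.988), or -0.32 without 10 µM replicate 2 (adjusted p = 0.342). Against 5 µM the 10 µM level differed by -0.80 (SE 0.31, limma adjusted p = 0.177), and without 10 µM replicate 2 ASCL2 was called, at -1.13 (adjusted p = 0.016).

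The ratio of ASCL2 to LGR5, both stem cell markers, was 1.77 to 2.15 in the control, 2.61 to 3.03 at 5 µM and 5.59 to 13.9 at 10 µM. These ranges do not overlap, and the lowest LGR5 fragment counts lie behind the highest ratios.

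**Figure D3:**
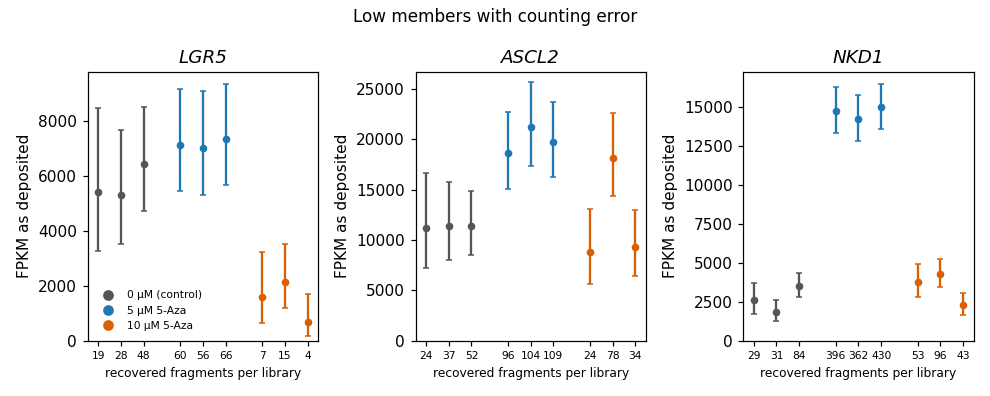
FPKM as deposited of LGR5, ASCL2 and NKD1 in each library, with the recovered fragment count under each point and bars for the Poisson 95% interval of that count, which covers counting error only. LGR5 at 10 µM rests on 4 to 15 fragments per library, NKD1 at 5 µM on 362 to 430.

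SOX9 (17:70117161-70122557, plus strand), a transcription factor of stem and Paneth cells, was at 572416, 594168 and 527321 FPKM in the control. It was at 296900, 362724 and 361839 at 5 µM and at 277265, 367640 and 240318 at 10 µM. All treated libraries lay below the control and the treated groups overlapped. The difference was -0.73 at 5 µM (SE 0.10, limma adjusted p = 0.00217) and -0.96 at 10 µM (SE 0.18, adjusted p = 0.0178), both within 2-fold. At 10 µM SOX9 was called without control replicate 3 (-1.01, limma adjusted p = 0.0486) or without 10 µM replicate 2 (-1.13, 0.00425). It missed the adjusted p without control replicate 1 (0.0687 by limma) or 2 (0.0828) and without 10 µM replicate 1 (0.0604) or 3 (0.0579).

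CD44 (11:35160429-35253949, plus strand), the hyaluronan receptor, is a Wnt target of crypt and tumour cells. Its FPKM was 1048090, 1029160 and 1163870 in the control, 404664, 476868 and 486369 at 5 µM, with 648192, 758126 and 583922 at 10 µM. The 3 groups did not overlap, with 5 µM the lowest and 10 µM between it and the control, the same order as RNF43. CD44 fell by 1.25 at 5 µM (SE 0.10, interval -1.48 to -1.01, limma adjusted p = 0.00038), or by 0.96 where libraries were scaled to equal totals, which is within 2-fold. At 10 µM the difference was -0.71 (SE 0.15, limma adjusted p = 0.0271), and against 5 µM the 10 µM level differed by 0.54 (SE 0.15, adjusted p = 0.0944). CD44 has many splice forms, which a value per gene does not separate.

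Of the transcription factors, MYC (8:128747680-128755197, plus strand) drives growth and the cell cycle. Its FPKM was 1094070, 1007330 and 872675 in the control, 338302, 349971 and 383660 at 5 µM, with 539163, 742677 and 507795 at 10 µM. Every treated library lay below the control, and every 5 µM library below every 10 µM library. MYC fell by 1.47 at 5 µM (SE 0.10, interval -1.71 to -1.22, limma adjusted p = 0.000297) and was called under every alternative. At 10 µM the difference was -0.75 (SE 0.19, limma adjusted p = 0.0406), within 2-fold. Between 10 µM and 5 µM it was 0.72 (SE 0.17, interval 0.31 to 1.13, adjusted p = 0.0593 by limma), which did not pass. MYC passed the adjusted p there with median-of-ratios scaling (0.92, limma adjusted p = 0.00557), equal library totals (0.81, 0.00955), all 9 libraries in a single fit (0.0283), a larger pseudocount (0.0496) or without 10 µM replicate 2 (0.55, 0.0245), each time within 2-fold.

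TCF7 (5:133450372-133487556, plus strand) encodes a TCF/LEF factor that is itself a Wnt target. Its FPKM was 235856, 257171 and 245509 in the control, 216343, 214578 and 236436 at 5 µM, with 179623, 223972 and 213395 at 10 µM. The 5 µM values overlapped the control, and the 10 µM values lay below it. The differences of -0.15 at 5 µM (SE 0.07, limma adjusted p = 0.136) and -0.26 at 10 µM (SE 0.13, adjusted p = 0.182) did not pass. Their sign turns to 0.14 and 0.11 where libraries are scaled to equal totals. An exon of TCF7 overlaps SKP1 on the opposite strand, and whether the counting used strand is not given in the sources used here, so that their reads may not be separable.

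Set side by side, the members formed no common direction at 5 µM. By the adjusted p alone, 7 of the 10 members passed at 5 µM, ASCL2 and NKD1 higher and SOX9, CD44, RNF43, ZNRF3 and MYC lower, beside 39.0% of all tested genes. At 10 µM against the control 5 passed, SOX9, CD44, ZNRF3, MYC and LGR5, all lower, beside 15.1% of all tested genes. With equal library totals only SOX9 passed that limma threshold (adjusted p = 0.0188), and CD44 (0.126), ZNRF3 (0.109), MYC (0.051) and LGR5 (0.0677) did not. Without control replicate 1 or 2 or 10 µM replicate 1 or 3, 0 members passed it, without control replicate 3 only SOX9, and without 10 µM replicate 2 the number was 6, RNF43 included. Between 10 µM and 5 µM, LGR5 and NKD1 passed, both lower, beside 6.17%. CD44, RNF43 and MYC also passed, all higher, with median-of-ratios scaling (limma adjusted p = 0.00949, 0.0147 and 0.00557), with equal library totals (0.0261, 0.0358 and 0.00955) and with all 9 libraries in a single fit (0.0385, 0.0187 and 0.0283). Without any 1 of the 5 µM replicates 0 members passed, without 10 µM replicate 1 only NKD1, and without 10 µM replicate 2 RNF43 and MYC passed higher and LGR5, ASCL2 and NKD1 lower. In that last comparison 4.82% of tested genes were called down and 0.129% called up. Replicates did not overlap between the groups for 9, 7 and 6 of the 10 members in the 3 comparisons, where 52.7%, 41.1% and 29.6% of all tested genes did not overlap. No member was called up at 10 µM in limma, against the control (0 higher at an unadjusted p under 0.05) or against 5 µM (3 higher, CD44, RNF43 and MYC). The comparisons share libraries, so their values are not independent of each other.

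The order of levels was held at its top and changed at its foot. RNF43 had the highest mean in every group, followed by CD44, MYC, SOX9 and AXIN2. Neighbours whose values overlapped were RNF43 with CD44, CD44 with MYC and ZNRF3 with TCF7 in the control, MYC with SOX9 at 5 µM, and RNF43 with CD44, CD44 with MYC and SOX9 with AXIN2 at 10 µM. In the control NKD1 was the lowest member and LGR5 the next, at the 13.1 to 19.3 and 20.1 to 23.7 percentile of the symbols above 0. At 5 µM NKD1 stood at the 33.5 to 34.4 percentile, above LGR5 at 27.0 to 27.9. At 10 µM LGR5 was the lowest, at 8.54 to 16. TCF7 and ZNRF3 changed places between the control, where ZNRF3 had the higher mean, and both treated groups.

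The other genes of the pathway were taken from lists of 84 further genes. Of 19 tested Wnt targets, 3 rose and 0 fell at 5 µM, and 0 rose and 2 fell at 10 µM against the control, with medians of 0.03 and -0.27. Over all tested genes 14.1% rose and 2.17% fell at 5 µM and 4.07% rose and 3.4% fell at 10 µM, with medians of 0.14 and -0.15, so that the share of targets that rose at 5 µM was near that of all genes. NOTUM, a secreted enzyme that inactivates Wnt ligands, was at 9131, 4536 and 5880 FPKM in the control, 26730, 25300 and 25725 at 5 µM, with 5389, 9282 and 10956 at 10 µM. NOTUM, a feedback inhibitor like NKD1, rose at 5 µM by 2.05 (SE 0.27, limma adjusted p = 0.002) and fell by 1.66 from 5 µM to 10 µM (SE 0.30, adjusted p = 0.0215). TNFRSF11B, the decoy receptor osteoprotegerin, rose by 1.93 at 5 µM (SE 0.12, limma adjusted p = 0.00023). LEF1, a TCF/LEF factor, was listed at 0 in control replicates 1 and 2 and at 294 in replicate 3, against 1373 to 1695 at 5 µM, where it was called (limma adjusted p = 0.0377), and its largest value rests on an estimated 17.1 fragments. At 10 µM EPHB2, a receptor that positions crypt cells, fell by 1.47 (SE 0.31, limma adjusted p = 0.0249) and BIRC5, the survival factor survivin, fell by 1.58 (SE 0.35, adjusted p = 0.0286). Between 10 µM and 5 µM 3 of the 19 fell, NOTUM, TNFRSF11B and BIRC5, beside 4.82% of all tested genes called down.

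Of the other intestinal stem cell genes, 2 of 16 rose and 2 fell at 5 µM, and 0 of 15 rose and 4 fell at 10 µM. Over all tested genes 14.1% rose and 2.17% fell at 5 µM, and 4.07% rose and 3.4% fell at 10 µM. The medians of these stem cell genes were -0.46 and -0.45, beside 0.14 and -0.15 over all tested genes. CDCA7, a MYC-regulated nuclear protein, fell by 1.49 at 5 µM (SE 0.11, limma adjusted p = 0.000328) and rose by 1.22 from 5 µM to 10 µM (SE 0.14, adjusted p = 0.00591). KCNQ1, a potassium channel, fell by 1.09 at 5 µM (SE 0.10, limma adjusted p = 0.000679). At 10 µM against the control, LGR4, a paralogue of LGR5 that also binds R-spondins, fell by 1.28 (SE 0.22, limma adjusted p = 0.0152), BMI1, a Polycomb protein, fell by 1.49 (SE 0.26) and the transcription factor ETS2 fell by 1.05 (SE 0.18). TERT, the telomerase catalytic subunit, was listed at 0 in control replicates 1 and 2 and at 297 in replicate 3, and stood between 3233 and 3423 at 5 µM, where it was called (limma adjusted p = 0.0237).

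Among Wnt receptors and R-spondins, 4 of 18 rose and 0 fell at 5 µM, and 1 rose and 1 fell at 10 µM. Their medians were 0.29 and -0.29, beside 0.14 and -0.15 over all tested genes. At 5 µM 14.1% of all tested genes rose and 2.17% fell. At 10 µM the counts of this list are near the 4.07% up and 3.4% down of all tested genes. LGR6, the third LGR receptor of R-spondins, was at 2191, 806 and 2508 FPKM in the control, 14990, 11611 and 12498 at 5 µM, with 8618, 5234 and 9663 at 10 µM. LGR6 rose at 5 µM by 2.98 (SE 0.48, limma adjusted p = 0.00407) and at 10 µM by 2.21 (SE 0.56, adjusted p = 0.0417), whereas LGR4 and LGR5 fell at 10 µM. FZD2, a Frizzled receptor, rose by 2.83 at 5 µM (SE 0.31, limma adjusted p = 0.00105) and fell by 1.67 from 5 µM to 10 µM (SE 0.33, adjusted p = 0.0314). FZD9 and the R-spondin RSPO4 were called at 5 µM and listed at 0 in all control libraries, and RSPO4 rests on at most an estimated 3.21 fragments. OLFM4, APCDD1, RSPO1 and RSPO3 were listed at 0 in all 9 libraries.

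None of the 13 tested genes of the destruction complex was called in limma in any comparison. At an unadjusted p under 0.05, 1 was higher and 7 lower at 5 µM, 0 higher and 8 lower at 10 µM, and 0 higher and 2 lower between the treated groups. Over all tested genes, 26.6% were higher and 21.9% lower at that p at 5 µM, 11.3% and 24.2% at 10 µM, and 2.84% and 22% between the treated groups. The medians were -0.29, -0.53 and -0.34, beside 0.14, -0.15 and -0.31 over all tested genes, so that the last was near the value of all genes. Over tested genes above 0 in every library of the comparison, the medians were -0.04, -0.23 and -0.24. Of the 16 tested nuclear factors of β-catenin, only LEF1 was called, at 5 µM. Over all tested genes 14.1% were called up and 2.17% down at 5 µM, and 4.07% and 3.4% at 10 µM. At an unadjusted limma p under 0.05, 4 of these factors were higher and 6 lower at 5 µM. At 10 µM 1 was higher and 5 lower, and between the treated groups 0 and 3. Their medians were -0.1, -0.27 and -0.32. CTNNB1, which encodes β-catenin and was chosen after its values were seen, differed by -0.34 at 5 µM (limma adjusted p = 0.0295) and by -0.65 at 10 µM (adjusted p = 0.0607).

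**Figure D4:**
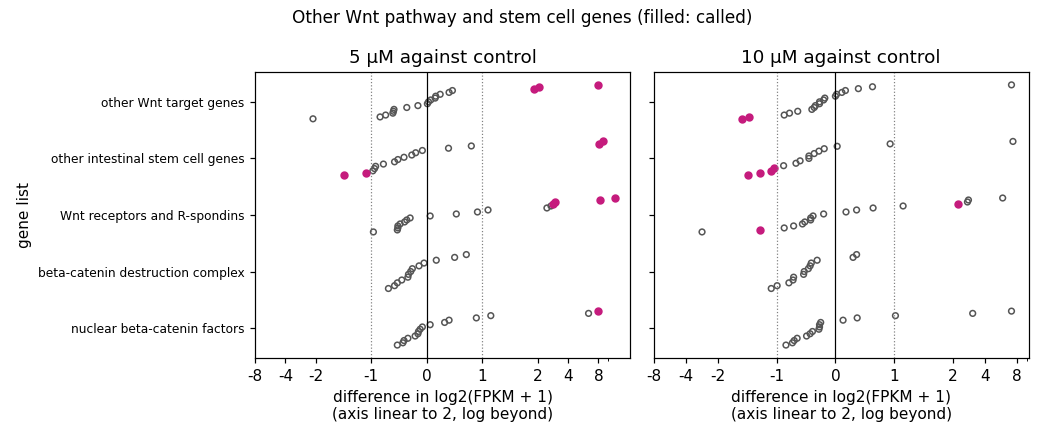
Difference in log2(FPKM + 1) of each gene in the lists of pathway and stem cell genes, at 5 µM and at 10 µM against the control, with 1 point per gene and filled points for called genes. Most points of the destruction complex lie below 0 and none is filled, with medians of -0.29 at 5 µM and -0.53 at 10 µM.

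Marker genes of the tissue and of other cell types also differed between the groups. The summed FPKM of 10 colon epithelial markers was 84911452 to 101967892 in the control, 33320284 to 37231012 at 5 µM and 27340369 to 48147521 at 10 µM, with none of the markers at 0. The keratins KRT8, KRT18 and KRT19 made up 72300840 to 87754990 of it in the control, 24283270 to 26906790 at 5 µM and 20643910 to 37637950 at 10 µM. The other 7 markers summed to 12610612 to 15162142, 9037014 to 10324222 and 6696459 to 10509571. Of these 10, KRT8, KRT18, KRT19 and GPA33 fell at 5 µM and CDX1 rose, and KRT19, CDX2 and GPA33 fell at 10 µM. Over all tested genes 2.17% were called down and 14.1% up at 5 µM. At 10 µM 3.4% were called down and 4.07% up. The adhesion genes EPCAM (-0.23, limma adjusted p = 0.197) and CDH1 (-0.06, 0.594) did not pass at 5 µM and were chosen after their values were seen. The remaining markers passed the adjusted p there, all lower but within 2-fold. They were VIL1 (-0.47, limma adjusted p = 0.00907), CDX2 (-0.73, 0.00513) and LGALS4 (-0.87, 0.00416). Of 13 markers of other cell types, 8 rose at 5 µM and 1 at 10 µM, beside 14.1% and 4.07% of all tested genes. Summed fibroblast markers were at 22549 to 32355 FPKM in the control, 82215 to 88739 at 5 µM and 44805 to 52149 at 10 µM. Leukocyte markers were at 36279 to 48157, 36534 to 44704 and 40357 to 50381, and endothelial markers at 1901 to 5031, 9786 to 12404 and 3267 to 3588. DCN was at 0 in all 5 µM libraries, COL1A2 in all 10 µM libraries, and CD3E and CDH5 in all control libraries. The part of these markers, and of the larger FPKM library term of the 5 µM libraries, in the members' differences was not tested.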

How the data were processed

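Paired-end RNA-Seq libraries of 9 HT-29 cultures were grouped by the sample labels. The FPKM values were deposited by the authors, who used FASTX-Toolkit for read filtering, TopHat for alignment to hg19 and Cufflinks for gene values. The library term of the FPKM is not given in the sources used here.

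Values of repeated symbols were summed, and no member stood on more than 1 entry. Each comparison used its 6 libraries in limma 3.58.1 under R 4.3.3 (lmFit, then eBayes with trend) on log2(FPKM + 1), without a replicate block, for genes whose largest value reached 10 in either group. Benjamini-Hochberg adjustment ran over all tested genes. An exact 2-sided permutation test of 3 against 3 libraries cannot give a p below 0.1 and was not used for calls. Only the limma fits and calls were tested on simulated data, which held no values at or near 0. Tables used numpy 2.4.6, pandas 2.3.3 and scipy 1.17.1.

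Fragments were recovered where the values of a member were whole multiples of 1 step over the libraries. The relative library term came from the value of 1 fragment at 12 microRNA genes of 110 nt, where 46 of 46 values were whole within 0.01. The 7 other members were estimated from annotated length to rest on 882 to 15855 fragments per library. Intervals of counts cover counting error only. Positions are those of GENCODE on GRCh37.

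The members and gene lists were chosen with earlier results of these data known. All members were named, and from the lists the genes called in any comparison, to at most 6 per list, with at least 10 estimated fragments where a list had more. The alternatives were other pseudocounts, no filter or a stricter one, no fold threshold, the largest entry of repeated symbols, all 9 libraries in a single fit, 2 other scalings of the libraries, the replicate block and each replicate left out.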

Additional observations from a re-analysis of the deposited data

How the results depend on the processing

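With libraries scaled to equal totals, the median over 15278 genes above 0 in all libraries moved from -0.04 to 0.25 at 5 µM and from -0.24 to 0.14 at 10 µM against the control, and from -0.22 to -0.13 between the treated groups (0, 0.01 and -0.02 with median-of-ratios scaling). Under equal totals 2 members were called up and 1 down at 5 µM, and 0 down at 10 µM. AXIN2 then turned to 0.19 and 0.31 and TCF7 to 0.14 and 0.11 against the control. Median-of-ratios scaling turned AXIN2 at 10 µM to 0.17 and TCF7 between treated groups to 0.08, and left 2 members called down at 5 µM, without RNF43. With no fold threshold, 2 members passed up and 5 down at 5 µM and 5 down at 10 µM. With no filter, 0 were called down at 10 µM against the control (LGR5 adjusted p = 0.0532 by limma). In that fit 3 members still passed the adjusted p alone, SOX9, CD44 and ZNRF3, all lower. Leaving out each replicate gave 0 to 2 members down at 10 µM against the control and 0 to 3 against 5 µM. It moved ASCL2 at 10 µM between -0.32 and 0.20, AXIN2 between -0.15 and 0.04, and, between treated groups, AXIN2 between -0.06 and 0.14 and ZNRF3 between -0.09 and 0.21. Same-numbered libraries deviated with r from -0.07 to 0.09 over 9 pairs, beside -0.16 to 0.1 over 18 differently numbered pairs. These ranges show no sign of pairing by number, but with 3 cultures per group they cannot exclude it. With a replicate block, 0 members were called down in either 10 µM comparison (limma adjusted p = 0.0667 and 0.0722 for LGR5, 0.0505 for NKD1). In that fit 2 passed the adjusted p alone at 10 µM against the control, SOX9 and ZNRF3. The causes were not tested. Of 450 alternatives for single members, 412 kept direction and call, 22 lost the call, 4 gained it and 12 turned direction. LGR5 at 10 µM rests on 4 to 15 fragments per library, which limits its precision.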

Other observations

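Over 15268 genes above 0 in all 9 libraries, the genes most like a member were those with the smallest root mean square distance between log2(FPKM + 1) values centred on each gene's mean. For AXIN2 these were KIAA0247 at 0.0492, AKAP10 at 0.0503 and ASXL1 at 0.0554. The genes nearest RNF43 were BICD1 at 0.0689, ANKRD29 at 0.095 and KIF7 at 0.109. MYC was nearest to ANO1 at 0.0911, ADRA2A at 0.127 and PARD3B at 0.143. CD44 was nearest to C8orf84 at 0.0938, AMIGO2 at 0.0955 and PARD3B at 0.115, so that PARD3B stands on the lists of both MYC and CD44.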
